A study of Mus musculus with 10 samples.

Results

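The insulin-like growth factor (IGF) genes of mouse osteoblasts, the bone-forming cells, comprised here the ligands Igf1 and Igf2, the receptors Igf1r and Igf2r, and the binding proteins Igfbp2, Igfbp3, Igfbp4, Igfbp5, Igfbp6 and Igfbp7. They were chosen by name: every probe set that the platform annotation assigns to 1 of these 10 gene symbols alone was taken, out of 18194 genes with such a probe set in the series. This gave 28 probe sets, and 1 further probe set that lists Igf2r together with another gene was left out. Total RNA was measured on 10 Affymetrix arrays, from mice aged 2 to 3 days whose background strain is recorded as C5BL6. The 4 wild-type samples were set against 3 samples in which β-catenin was constitutively expressed in osteoblasts, called active β-catenin here, and 3 samples in which FoxO1 was deleted in osteoblasts. The labels name neither the promoter or Cre line that restricted either change to osteoblasts nor whether a sample was 1 animal, a pool or a culture, and no allele or agent shared by all groups is named. A p-value here thus weighs differences against the variation among these arrays, part of which may be technical.

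Igf1 and Igf2 are secreted growth factors that osteoblasts both make and respond to, and they are stored in bone matrix. Their growth signal passes through Igf1r, a receptor tyrosine kinase that recruits insulin receptor substrates and activates Akt, whereas Igf2r carries Igf2 to lysosomes for degradation. The binding proteins hold the ligands in serum and matrix, and proteases release them again. FoxO1 is a transcription factor that Akt keeps out of the nucleus, and β-catenin is the transcriptional partner of TCF/LEF factors in Wnt signalling.

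Values are log2 MAS5 signal, in which a difference of 1 is a doubling of signal. Levels of different probe sets cannot be set against each other, since probe sets differ in how brightly they report. Array medians over all probe sets ran from 7.02 to 7.22. Of the 11 osteoblast markers listed, 8 were measured, all above the low-signal filter. Runx2, Spp1 and Bglap had no probe set assigned to them alone, so their level was not read. Among those measured, Col1a1 lay between 15.04 and 15.35 over the arrays, and Sp7, an osteoblast transcription factor, between 10.92 and 11.82. The mean of Ctnnb1, which encodes β-catenin, was 14.45 with active β-catenin and 14.48 in wild type, and that of Foxo1 was 9.87 with FoxO1 deleted and 10.04 in wild type. The altered part of either gene is not given in the labels, so these probe sets check nothing. The wild-type arrays formed 2 pairs, 1 with 2 and 3 with 4, with correlations over all probe sets of 0.948 and 0.946 within the pairs and 0.938 to 0.941 between them. The same pairs differed in Xist, the RNA of the inactive X chromosome, at 8.96 and 7.29 in wild type 1 and 2 against 14.25 and 14.05 in wild type 3 and 4. Xist was low in all 3 active β-catenin arrays (5.91 to 7.06) and in FoxO1 deleted 1 (7.88), and high in FoxO1 deleted 2 and 3 (14.22 and 14.43). Pair and sex signal cannot be told apart in the wild type. The actin 3′ minus 5′ probe difference, a measure of RNA integrity, was 0.60 to 0.77 in wild type, 0.85 to 0.88 with active β-catenin and 0.80 to 0.99 with FoxO1 deleted; its part in any result was not tested.

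The first comparison asks which IGF genes differ when β-catenin is active. Igfbp7 rose by 0.62 on the log2 scale, a 1.54-fold higher signal than in wild type, and was the only 1 of the 10 genes to pass the test. Igf1, Igfbp5 and Igf1r were higher by 0.41, 0.39 and 0.26 without passing it. Signal of the other 6 genes lay within 0.17 of wild type on average. Each gene was represented by its brightest probe set that passed the low-signal filter, and limma was fitted across all 11357 genes tested, with Benjamini-Hochberg adjustment and a threshold of 0.05. In this comparison 0.784% of all genes passed. In 4 of the 10 genes all active β-catenin arrays lay on 1 side of all wild-type arrays (Igf1r, Igfbp4, Igfbp5 and Igfbp7), each time above, where 14% of all genes had non-overlapping arrays in either direction. At an unadjusted p under 0.05 there were 4 of the 10 genes (Igf1, Igf1r, Igfbp5 and Igfbp7), and 12.1% of all genes tested. The difference was positive in 8 of the 10 genes, with a median of 0.15, while 51.3% of all genes tested had a positive difference, with a median of 0.00.

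**Figure D1:**
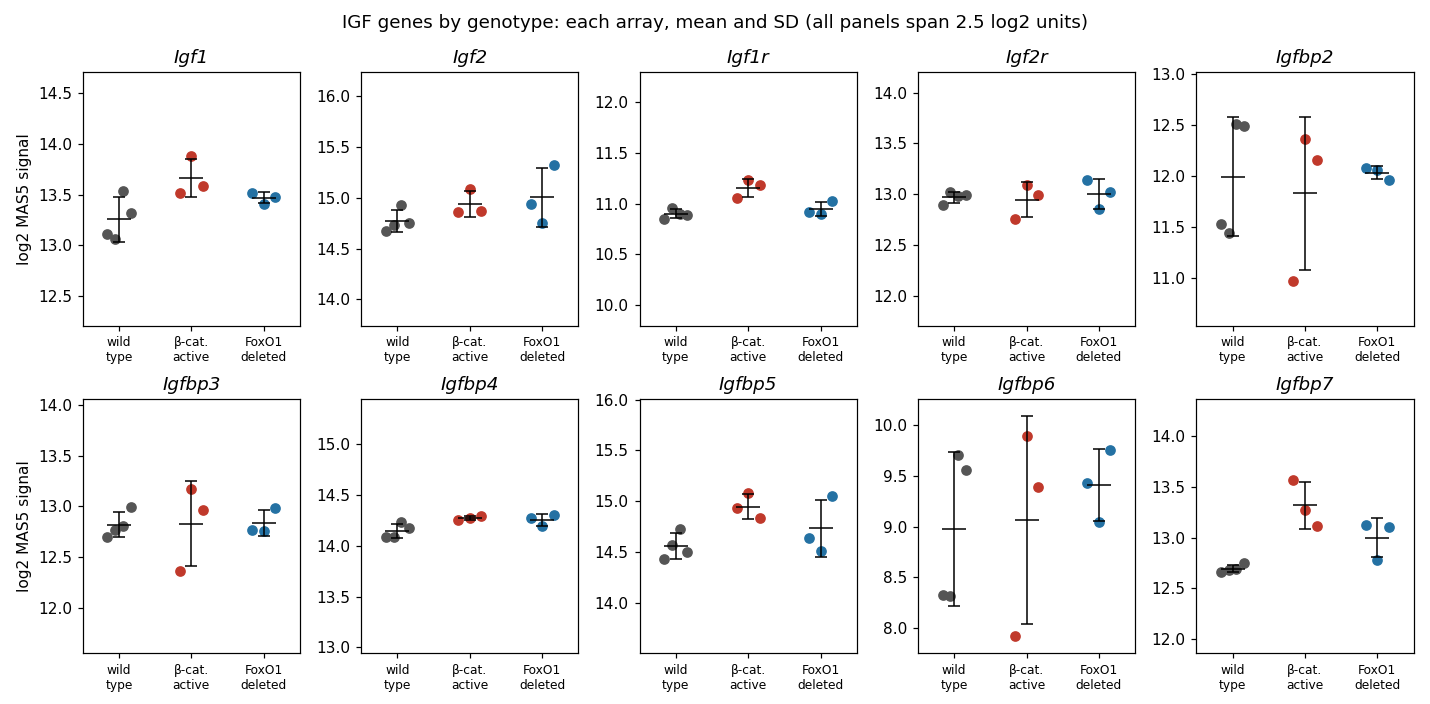
Log2 MAS5 signal (vertical axis) of the 10 IGF genes in each array, by genotype (n = 4 wild type, n = 3 active β-catenin, n = 3 FoxO1 deleted), with the mean and SD as bars; every panel spans the same number of log2 units. Igfbp7 shows 4 tightly grouped wild-type arrays below all active β-catenin arrays, while Igfbp2 and Igfbp6 spread by 1.54 and 1.97 over the 10 arrays.

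Of the ligands, Igf1, the main growth factor downstream of growth hormone, had a log2 signal of 13.11, 13.06, 13.54 and 13.32 in wild type 1 to 4, 13.52, 13.88 and 13.59 with active β-catenin, and 13.52, 13.41 and 13.48 with FoxO1 deleted. In this brightest probe set only wild type 3 reached into the range of the active β-catenin arrays. The means were 13.66 ± 0.19 (SD, n = 3) with active β-catenin and 13.26 ± 0.22 (n = 4) in wild type, a difference of 0.41 ± 0.12 (SE) with an adjusted p of 0.171 in limma. In all 4 Igf1 probe sets the difference was positive, from 0.19 to 0.41. In 1 dimmer set wild type 3 and 4 read 11.64 and 11.62, inside the active β-catenin range of 11.51 to 11.73. In another they read 11.70 and 11.63, inside 11.30 to 11.70. With the mean of the Igf1 probe sets the difference was 0.31, with an adjusted p of 0.455 in limma. Igf1 also differed within the wild type, where arrays 3 and 4 lay 0.34 above arrays 1 and 2 on average. When only arrays of low Xist signal were compared (wild type 1 and 2 against the 3 active β-catenin arrays), the difference was 0.58 with an adjusted p of 0.0493 in limma. That was the 1 setting of the 22 tried in which Igf1 passed, and the adjusted p reached 0.659 when each similar wild-type pair was averaged. Igf2, the fetal and neonatal growth factor expressed from the paternal allele, ran from 14.67 to 14.93 in wild type, 14.86 to 15.09 with active β-catenin and 14.75 to 15.32 with FoxO1 deleted. Its difference with active β-catenin was 0.17 ± 0.13 (adjusted p = 0.660 in limma), and its second probe set differed by -0.20, so the 2 probe sets disagreed in sign.

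Of the receptors, Igf1r had a log2 signal of 10.85, 10.96, 10.90 and 10.89 in the wild-type arrays, 11.06, 11.23 and 11.18 with active β-catenin, and 10.92, 10.90 and 11.03 with FoxO1 deleted. All 3 active β-catenin arrays lay above all 7 others. The difference from wild type was 0.26 ± 0.07 (SE, 95% interval 0.10 to 0.42), which did not pass the test (adjusted p = 0.159 in limma). A second Igf1r probe set also had non-overlapping arrays, by a narrow margin, with 10.86 to 11.07 in wild type against 11.10 to 11.16 with active β-catenin. The other 3 Igf1r probe sets differed by -0.05 to 0.15, with overlapping arrays. Igf2r showed no such separation: it ran from 12.89 to 13.02 in wild type and from 12.76 to 13.09 with active β-catenin, a difference of -0.02 ± 0.09 whose 95% interval reached from -0.23 to 0.18. The promoter-side sequence of Igf1r is shown because, in its brightest probe set, the arrays separated active β-catenin from both other genotypes. It is the 250 bases before the RefSeq start at chr7:67952007-67952256 (GRCm38.p6, plus strand), with matches to the TCF/LEF core CTTTGA and to the GC box GGGCGG in capitals.
Igf1r: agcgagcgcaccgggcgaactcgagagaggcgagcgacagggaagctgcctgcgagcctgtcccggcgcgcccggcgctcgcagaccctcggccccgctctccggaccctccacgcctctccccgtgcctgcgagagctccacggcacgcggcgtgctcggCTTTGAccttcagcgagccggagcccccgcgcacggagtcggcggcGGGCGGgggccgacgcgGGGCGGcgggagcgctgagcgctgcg
The CTTTGA match begins 89 bases before the start, and the GC boxes begin 43 and 26 bases before it. CTTTGA or its reverse TCAAAG occurs in 13.8% of 32851 such windows in the mouse table and in 3 of the 14 windows of the IGF genes (1 each of Igf1, Igf2 and Igf1r), so a match is a common feature and is given as a description.

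Igfbp7 is a secreted protein that binds IGFs more weakly than the other binding proteins and also binds insulin and basement membrane. Its log2 signal was 12.66, 12.68, 12.69 and 12.75 in the wild-type arrays, 13.57, 13.27 and 13.11 with active β-catenin, and 13.12, 12.78 and 13.10 with FoxO1 deleted. The wild-type arrays were tightly grouped, all 3 active β-catenin arrays lay above them, and the FoxO1 deleted arrays overlapped the active β-catenin arrays only where FoxO1 deleted 1, at 13.12, exceeded active β-catenin 3, at 13.11. The mean was 13.32 ± 0.23 (SD, n = 3) with active β-catenin and 12.69 ± 0.04 (n = 4) in wild type, a difference of 0.62 ± 0.11 (SE, 95% interval 0.37 to 0.87). This is a 1.54-fold difference (interval 1.29 to 1.83), higher in 3 of 3 arrays, with an adjusted p of 0.0305 in limma. A second, dimmer probe set read 7.28, 7.07, 7.01 and 7.21 in the wild-type arrays, 8.14, 7.72 and 7.89 with active β-catenin, and 7.35, 7.26 and 7.38 with FoxO1 deleted. Here the 3 active β-catenin arrays lay above all 7 others, which they did not in the brighter set. The wild-type values of this dimmer set lay on both sides of the filter level of 7.15, so low signal limits its difference. In the fit over every kept probe set, in which 0.507% of the 20127 probe sets passed, its difference was 0.77 ± 0.17 with an adjusted p of 0.0752 in limma, and the brighter set had an adjusted p of 0.0370. The third Igfbp7 probe set was left out by the low-signal filter, with values between 2.92 and 5.48.

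The sign of the Igfbp7 difference was positive in all 22 other settings, whereas its side of the threshold was not stable. The difference ran from 0.50 to 0.73 and the adjusted p from 0.0127 to 0.341 in limma, with 10 settings past the threshold and 12 not. The adjusted p rose to 0.1005, 0.0989, 0.0880 and 0.0792 without wild type 1, 2, 3 and 4 in turn, and to 0.0984 and 0.0762 without active β-catenin 1 and 2. It was 0.186 with a term for Xist signal, 0.0578 in the arrays of low Xist signal, where the difference was 0.65, and 0.341 with each similar wild-type pair averaged to 1 unit.

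**Figure D2:**
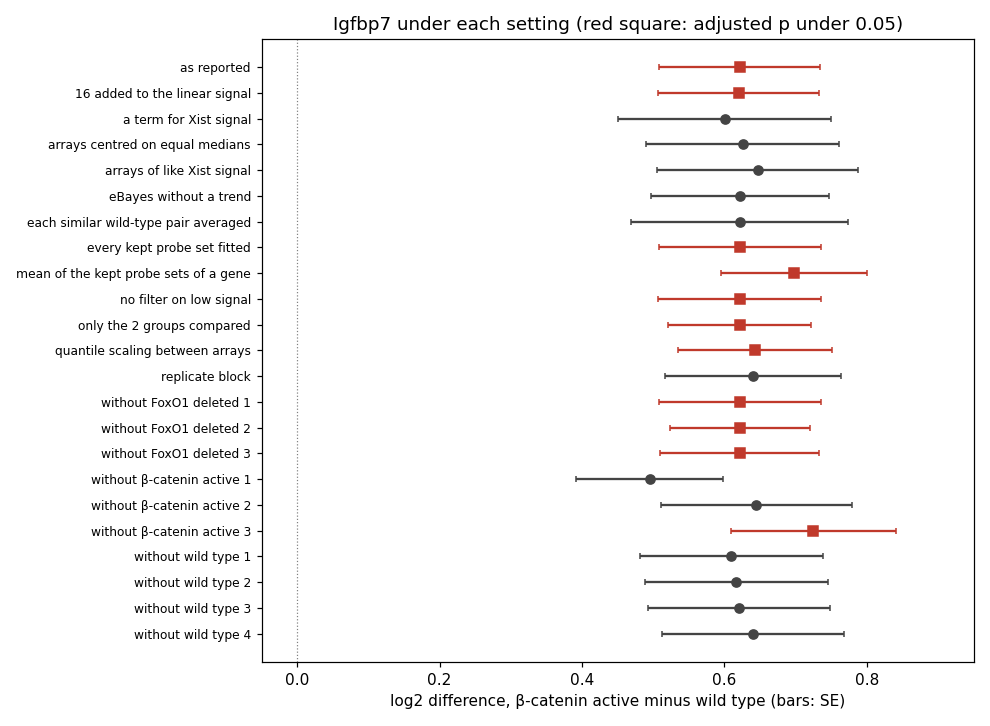
Log2 difference of Igfbp7, active β-catenin minus wild type (horizontal axis, bars are SE), as reported and under each other setting; red squares have an adjusted p under 0.05 in limma. All differences lie between 0.50 and 0.73, and 10 of the 22 other settings keep the adjusted p under 0.05.

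Markers of several other cell types moved with the same genotype. All 8 endothelial markers were measured, and their mean log2 level was 9.49 to 9.54 in the wild-type arrays, 9.76 to 9.86 with active β-catenin and 9.57 to 9.68 with FoxO1 deleted. None of the 8 passed the test in active β-catenin against wild type, 7 had a positive difference and 5 had non-overlapping arrays. Over all genes tested in this comparison, 51.3% had a positive difference, 14% had non-overlapping arrays and 0.784% passed. The mean level of the 10 fibroblast and smooth muscle markers was 11.79 to 12.01 in wild type against 12.03 to 12.41 with active β-catenin, and 2 of the 10 rose. Across the 10 arrays, active β-catenin 1 was the highest in Igfbp7, and also in the fibroblast and smooth muscle, the endothelial and the osteoblast markers. In the chondrocyte markers it was the lowest of the 3 active β-catenin arrays, at 10.40. In the skeletal muscle markers it was the lowest of all 10 arrays, at 11.33. Of the 8 osteoblast markers measured, 7 had a positive difference and none passed the test. The 10 chondrocyte markers had a mean level of 9.60 to 10.11 in wild type against 10.40 to 10.70 with active β-catenin. All 10 had a positive difference, with a median of 0.71, 5 had non-overlapping arrays and none passed the test. Markers of blood cells were lower: the 4 of 6 erythroid markers measured had a mean level of 7.97 to 9.30 in wild type against 5.62 to 6.98 with active β-catenin, with a median difference of -2.41 and no overlap in any of the 4, and the 7 neutrophil markers measured had a median difference of -2.68, with 2 of them passing the test. No endothelial, chondrocyte, or fibroblast and smooth muscle marker lay on average at or below the table median of 7.15 in any genotype, while 2 of the erythroid markers did with active β-catenin. The part of these markers in the Igfbp7 difference was not tested, and in bulk samples fewer cells of a type and less RNA per cell cannot be told apart.

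The promoter-side sequence of Igfbp7 is shown because it is the gene that passed the test. It is the 250 bases before the RefSeq start at chr5:77408046-77408295 (GRCm38.p6, minus strand, written in the direction of transcription), with GC boxes (GGGCGG, or CCGCCC on the other strand) in capitals.
Igfbp7: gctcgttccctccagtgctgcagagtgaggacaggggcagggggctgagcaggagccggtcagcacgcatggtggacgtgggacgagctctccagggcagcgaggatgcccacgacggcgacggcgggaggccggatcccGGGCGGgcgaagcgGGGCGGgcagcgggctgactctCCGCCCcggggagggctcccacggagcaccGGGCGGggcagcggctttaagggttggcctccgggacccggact
Its GC content was 74%, and that of Igf1r 77.6%, against a median of 52.4% over all such windows. The 4 GC boxes begin 110, 96, 74 and 44 bases before the start. A GC box occurs in 32.7% of all windows and in 6 of the 14 IGF windows. Neither CTTTGA nor the FoxO core GTAAACA (reverse TGTTTAC) occurs in the Igfbp7 window; the FoxO core occurs in 3.17% of all windows and in none of the 14 IGF windows, and TATAAA (reverse TTTATA) in 12.4% and in 2 (Igfbp4 and Igfbp6). The absence of a match says only that these letters are not in these windows.

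Among the other binding proteins, Igfbp5, an IGF-binding protein that osteoblasts deposit in bone matrix, read 14.43, 14.57, 14.73 and 14.50 in the wild-type arrays, 14.93, 15.08 and 14.83 with active β-catenin, and 14.64, 14.51 and 15.05 with FoxO1 deleted. The active β-catenin arrays lay above all wild-type arrays, and FoxO1 deleted 3 reached the same level. The difference from wild type was 0.39 ± 0.13 (adjusted p = 0.205 in limma), and 0.31 with an adjusted p of 0.0319 after quantile scaling between arrays, the 1 setting of 22 in which it passed. The adjusted p ran from 0.0319 to 0.740 over all settings. The second Igfbp5 probe set differed by 0.08 with overlapping arrays. Igfbp4, which restrains IGF action until the protease Pappa cleaves it, ran from 14.09 to 14.23 in wild type and from 14.25 to 14.29 with active β-catenin. These arrays did not overlap, yet the difference was only 0.12 ± 0.07 (adjusted p = 0.506 in limma), and 5 of its 6 probe sets had a positive difference, from -0.22 to 0.18. Igfbp3, the main carrier of IGFs in serum, differed by 0.01 ± 0.16, with active β-catenin arrays from 12.36 to 13.17 on both sides of the wild-type range of 12.70 to 12.99.

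Igfbp2 and Igfbp6 varied more within the genotypes than between them. Igfbp6, which prefers Igf2 as its ligand, read 8.33, 8.32, 9.71 and 9.56 in the wild-type arrays, 7.92, 9.89 and 9.39 with active β-catenin, and 9.43, 9.05 and 9.75 with FoxO1 deleted. Wild type 3 and 4 were 1.31 above wild type 1 and 2, a gap between the pairs larger than that of 99.0% of the genes tested. Igfbp2, which binds both ligands, read 11.53, 11.44, 12.51 and 12.49 in the wild-type arrays, 10.97, 12.36 and 12.16 with active β-catenin, and 12.08, 12.06 and 11.96 with FoxO1 deleted. Its gap between the wild-type pairs was 1.01, larger than that of 97.9% of genes. Active β-catenin 1 was the lowest array in both genes, and the pair correlated across the 10 arrays at r = 0.921, a description over arrays that share these genotypes and pairs. The differences between active β-catenin and wild type were 0.09 ± 0.47 for Igfbp6 and -0.16 ± 0.34 for Igfbp2, with 95% intervals of -0.94 to 1.12 and -0.91 to 0.59, so this design could not resolve changes of up to about 1 log2 unit. In the arrays of low Xist signal alone the differences were 0.74 (adjusted p = 0.572 in limma) for Igfbp6 and 0.35 (adjusted p = 0.738) for Igfbp2.

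The skeletal muscle markers followed the same arrays. The mean log2 level of the 10 markers was 11.48, 11.53, 12.59 and 12.53 in the wild-type arrays, 11.33, 12.77 and 12.38 with active β-catenin, and 12.67, 11.61 and 12.12 with FoxO1 deleted. The arrays lowest in Igfbp6, active β-catenin 1 and wild type 1 and 2, were also the 3 lowest in muscle markers, while FoxO1 deleted 2 was low in muscle markers without being low in Igfbp2. The neutrophil markers, 7 of 8 of which were measured, ran the other way between the wild-type pairs, at 11.01 and 11.03 in wild type 1 and 2 and 10.01 and 10.03 in wild type 3 and 4. They were lower in the other genotypes, at 7.63 to 8.20 with active β-catenin and 6.77 to 9.75 with FoxO1 deleted, where 3 and 1 of the 7 lay on average at or below the table median. The part of these cell types in the spread of Igfbp2 and Igfbp6 was not tested.

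**Figure D3:**
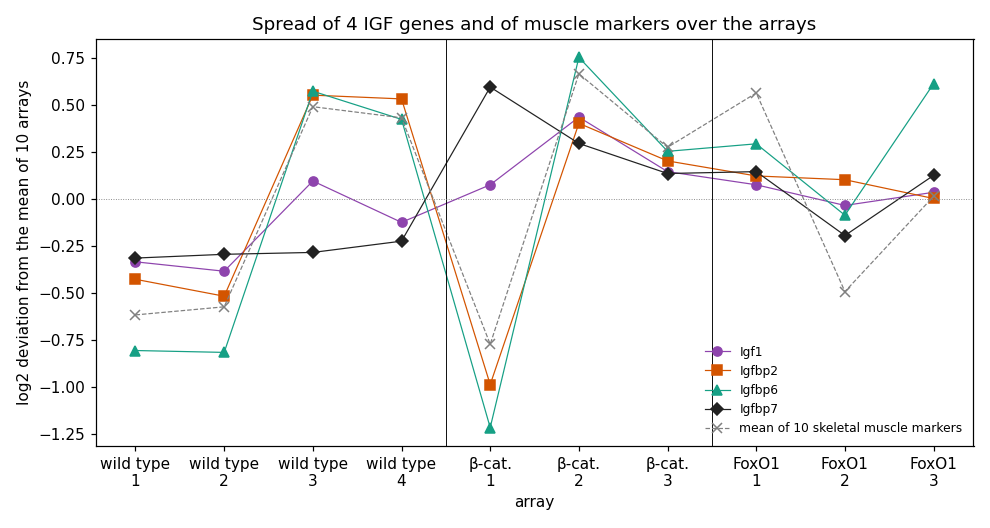
Deviation of the log2 signal from the mean of the 10 arrays (vertical axis) for Igf1, Igfbp2, Igfbp6 and Igfbp7 and for the mean of 10 skeletal muscle markers, array by array, with lines joining the points only to guide the eye. Igfbp2, Igfbp6 and the muscle markers are low in wild type 1, wild type 2 and active β-catenin 1, whereas Igfbp7 is at its highest in active β-catenin 1.

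The second comparison asks which IGF genes differ when FoxO1 is deleted. No IGF gene passed the test in limma, and 0.0264% of all genes passed. At an unadjusted p under 0.05 there was 1 gene of the 10, and 7.83% of all genes tested. Igfbp7 had the smallest p of the 10: its arrays of 13.12, 12.78 and 13.10 all lay above the wild-type maximum of 12.75, a difference of 0.31 ± 0.11 (SE, 95% interval 0.06 to 0.55), higher in 3 of 3 arrays, with an adjusted p of 0.590 in limma. It was the 1 gene of the 10 without overlap, where 9.03% of all genes had none. Markers of other cell types moved with FoxO1 deletion too. All 10 chondrocyte markers had a positive difference, with a median of 1.09, and 8 had non-overlapping arrays; their mean level was 9.60 to 10.11 in wild type against 10.27 to 11.71 with FoxO1 deleted, and none passed the test. The 7 neutrophil markers measured were lower, with a median difference of -2.16, and so were the 4 erythroid markers measured, with a median difference of -1.41, again with none passing. Among the FoxO1 deleted arrays, FoxO1 deleted 1 was the highest in the chondrocyte markers, at 11.71, and FoxO1 deleted 3 the lowest, at 10.27. In Igfbp7 these arrays read 13.12 and 13.10. FoxO1 deleted 2 read 10.86 in the chondrocyte markers and 12.78 in Igfbp7. The part of these markers in the Igfbp7 values was not tested. In the second Igfbp7 probe set the difference was 0.19, and FoxO1 deleted 2, at 7.26, lay within the wild-type range. Igfbp6 had a difference of 0.43 ± 0.47, Igf2 of 0.23 ± 0.13, Igf1 of 0.21 ± 0.12 and Igfbp5 of 0.18 ± 0.13. FoxO1 deleted 3 was the highest of the FoxO1 deleted arrays in Igf2, at 15.32, and in Igfbp5, at 15.05. Igfbp4 differed by 0.11 ± 0.07, and Igf1r, Igf2r, Igfbp2 and Igfbp3 differed by 0.02 to 0.05.

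All 10 differences between FoxO1 deleted and wild type were positive, with a median of 0.14, while 49.96% of all genes tested were positive with a median of 0.00. With arrays centred on equal medians the 10 genes stayed positive, but 60.0% of all genes were positive too. The count was 8 of 10 when a gene was the mean of its kept probe sets. It was 6 of 10 in the arrays of high Xist signal alone (wild type 3 and 4 against FoxO1 deleted 2 and 3), where Igfbp2 differed by -0.49, Igfbp6 by -0.24 and Igfbp7 by 0.22 (adjusted p = 0.658 in limma). Over the 27 kept probe sets, 19 had a positive difference with FoxO1 deleted and 21 with active β-catenin. Both comparisons use the same 4 wild-type arrays.

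**Figure D4:**
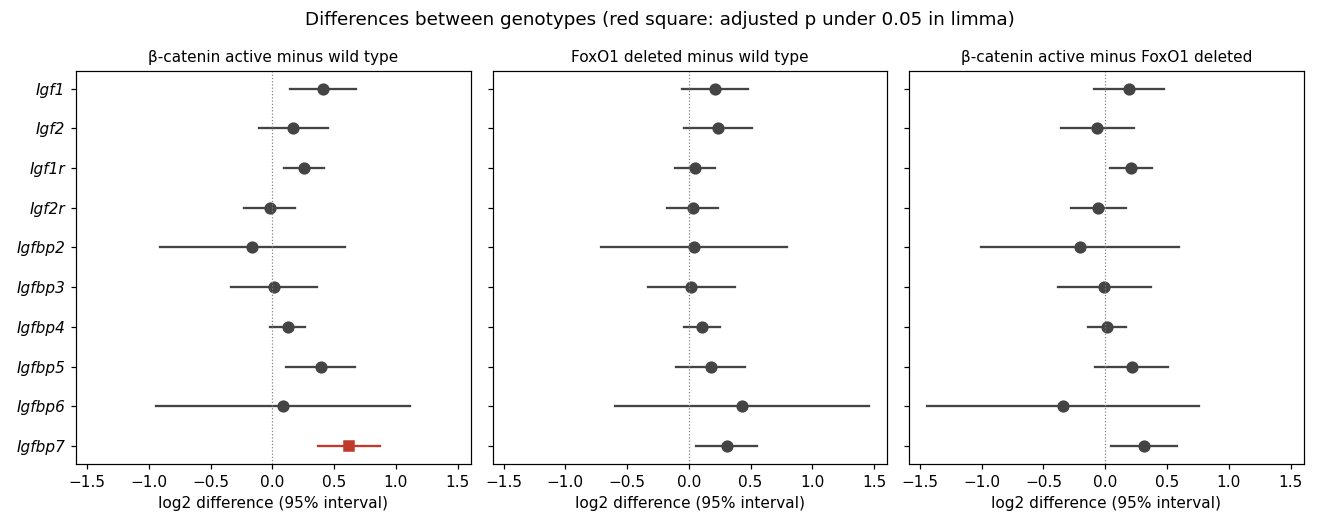
Log2 difference (horizontal axis) of each IGF gene with its 95% interval in the 3 comparisons of genotypes; the red square marks an adjusted p under 0.05 in limma. Igfbp7 with active β-catenin, at 0.62, is the only gene marked, and the intervals of Igfbp2 and Igfbp6 are the widest of the 10 genes.

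The third comparison set the 2 altered genotypes against each other. No IGF gene passed the test in limma, where 0.669% of all genes did, and 2 of the 10 had an unadjusted p under 0.05, as did 8.03% of all genes tested. These were Igfbp7, higher with active β-catenin by 0.32 ± 0.12 (95% interval 0.05 to 0.58, adjusted p = 0.508 in limma), and Igf1r, higher by 0.21 ± 0.08 (interval 0.03 to 0.38, adjusted p = 0.503 in limma). Igf1r was the 1 gene of the 10 whose arrays did not overlap, where 9.54% of all genes had none. Its probe sets disagreed in sign: over the 5 kept, differences ran from -0.22 to 0.24, with 3 positive. In 1 dimmer Igf1r set all active β-catenin arrays, at 7.88 to 8.10, lay below all FoxO1 deleted arrays, at 8.13 to 8.33. The second probe set of Igfbp7 did not overlap either, with a difference of 0.59 and an adjusted p of 0.335 in the limma fit over every kept probe set. Differences were positive in 5 of the 10 genes, with a median of 0.00. Igfbp5 differed by 0.21 ± 0.13, Igf1 by 0.19 ± 0.13, Igfbp6 by -0.34 ± 0.50 and Igfbp2 by -0.20 ± 0.37, and the remaining 4 genes by -0.06 to 0.02. The rise of Igfbp7 against wild type was thus not shown to be particular to active β-catenin.

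By order of the mean, active β-catenin was highest and wild type lowest for Igf1, Igf1r, Igfbp4, Igfbp5 and Igfbp7, with FoxO1 deleted between them. For these 5 genes the step from FoxO1 deleted to active β-catenin and the step from wild type to FoxO1 deleted each failed the test. FoxO1 deleted had the highest mean for Igf2, Igf2r, Igfbp2, Igfbp3 and Igfbp6, where no neighbouring genotypes differed by the test either. Across the 10 arrays the closest pairs of IGF genes were Igfbp2 with Igfbp6, Igf1 with Igfbp4 (r = 0.856), Igf2 with Igfbp5 (r = 0.844), Igfbp3 with Igfbp6 (r = 0.836) and Igf1r with Igfbp5 (r = 0.820). These correlations describe arrays that share genotypes and pairs.

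**Figure D5:**
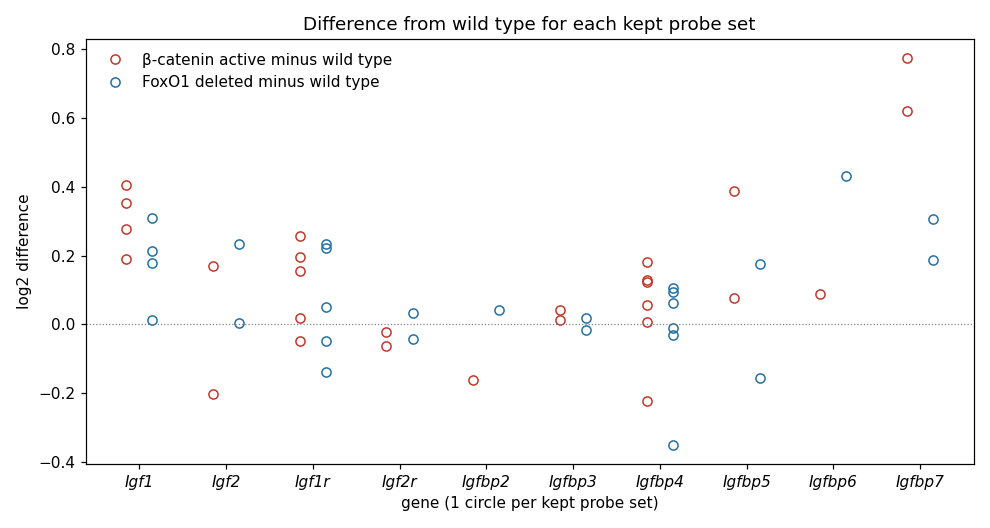
Log2 difference from wild type (vertical axis) for each kept probe set of the 10 IGF genes (horizontal axis), red for active β-catenin and blue for FoxO1 deleted, without error bars. Both Igfbp7 probe sets lie above those of every other gene with active β-catenin, at 0.62 and 0.77, while the probe sets of Igf2, Igf1r and Igfbp4 fall on both sides of 0. The Igfbp7 probe set at 0.77 read near the level of the low-signal filter in wild type.

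Around the 10 genes, a list of 34 other genes of the pathway was read from the same fit, 27 of which were tested. Igfbp1, Igfals, Igfbpl1, Insrr and Irs4 had no probe set above the filter, and H19 and Igf2bp2 are not analysed here. With active β-catenin 1 gene rose, none fell and 26 did not pass, where 0.784% of all genes tested passed. The median difference was 0.13, against 0.005 over all genes tested. An unadjusted p under 0.05 was found for 5 of the 27, and for 12.1% of all genes tested. The gene that rose was Htra1, a secreted serine protease that cleaves IGF-binding proteins. It read 12.81, 12.75, 13.11 and 13.04 in the wild-type arrays, 13.48, 13.47 and 13.49 with active β-catenin, and 13.08, 12.93 and 13.23 with FoxO1 deleted. The 3 active β-catenin arrays lay within 0.02 of each other and above all 7 others. The difference from wild type was 0.55 ± 0.10 (SE, 95% interval 0.33 to 0.77), a 1.47-fold difference, with an adjusted p of 0.0308 in limma. That adjusted p rose to 0.106, 0.0989 and 0.0621 without wild type 1, 2 and 4, and to 0.110, 0.0850 and 0.0972 without active β-catenin 1, 2 and 3. It was 0.0111 in the arrays of low Xist signal and 0.236 with each similar wild-type pair averaged. Htra1 also missed the threshold with the mean of its kept probe sets (0.0563), a term for Xist signal (0.0582) and the replicate block (0.0714). The same held with no trend (0.0793) and equal medians (0.123). It passed with no filter (0.0465), quantile scaling (0.0110), 16 added (0.0297), only the 2 groups (0.0275) and each kept probe set (0.0385).

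The next smallest p in the list was that of Irs1, the docking protein that passes the signal of Igf1r and the insulin receptor to phosphoinositide 3-kinase. It read 12.11, 12.14, 12.37 and 12.23 in the wild-type arrays, 12.52, 12.66 and 12.63 with active β-catenin, and 12.33, 12.35 and 12.43 with FoxO1 deleted. The active β-catenin arrays lay above all others, and the difference of 0.39 ± 0.08 missed the threshold (adjusted p = 0.0509 in limma). Its adjusted p was 0.0180 after quantile scaling and 0.353 with each similar wild-type pair averaged. Irs1 also passed in limma with 16 added (0.0488) and the mean of its kept probe sets (0.0462). The same held without wild type 3 (0.0413) and without FoxO1 deleted 3 (0.0448). Outside the arrays of low Xist signal, where the difference was 0.48, it missed the threshold in every other setting. The 3 further genes with an unadjusted p under 0.05, named after their values were seen, were Pappa2, a protease of Igfbp5, higher by 0.35, Ghr, the growth hormone receptor, higher by 0.28, and Grb2, an adaptor, at -0.27.

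By role, 1 of the 7 proteases and protease inhibitors rose with active β-catenin, and 6 of the 7 had a positive difference. Over all genes tested, 0.784% passed and 51.3% had a positive difference. The count of positive differences was also 6 of 7 with FoxO1 deleted against wild type, and between the altered genotypes. None of the 8 insulin receptor family members and adaptors passed in limma, nor did any of the 5 partners of Igf2, the 6 genes of the growth hormone axis or the 1 carrier relative tested, and the numbers with an unadjusted p under 0.05 were 2, 0, 1 and 0. With FoxO1 deleted none of the 27 genes passed in limma and 0 had an unadjusted p under 0.05, against 7.83% of all genes tested. The 2 smallest p-values there were those of Adam12, a membrane protease, at 0.22, and Irs1 at 0.16, each with an adjusted p of 0.651 in limma. Between active β-catenin and FoxO1 deleted none passed in limma and 8 of the 27 had an unadjusted p under 0.05, against 8.03% of all genes tested, led by Htra1 at 0.40 (adjusted p = 0.229) and Irs1 at 0.23 (adjusted p = 0.462).

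The genes whose log2 signal followed Igfbp7 most closely over the 10 arrays were Sash1, a signalling scaffold (r = 0.973), Col4a1, a collagen of basement membranes (r = 0.960), and Thy1, a surface protein of fibroblasts and other cells (r = 0.957). Col4a1 rose with active β-catenin by 0.63 (adjusted p = 0.0137 in limma) and Thy1 by 0.91 (adjusted p = 0.0368 in limma), and Sash1 had a difference of 0.33 (adjusted p = 0.116 in limma). With FoxO1 deleted the 3 genes differed by 0.36, 0.38 and 0.16 in that order. Thy1 is also 1 of the 10 fibroblast and smooth muscle markers. The correlations are given over arrays of 3 genotypes, so a shared difference between genotypes is part of them.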

How the data were processed

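The deposited table holds log2 MAS5 signal for 45101 probe sets on 10 arrays. MAS5 is named without a version per the submitters' processing notes; the log2 base follows from the values, whose linear mean, trimmed by 2% at each end, is about 500 on every array. Biotin-labelled cRNA was made from 500 ng of Trizol-extracted RNA, per the labels' protocols. Genes come from the platform annotation, in which 34958 probe sets have 1 gene, 932 several and 9211 none listed, and 99.4% of the 1-gene probe sets matched RefSeq (GRCm38.p6). The array's genome build was not given in the sources used, and precision is limited by how few arrays there are.

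Probe sets with at least 3 of 10 values above the table median of 7.15 were kept, and the kept set of highest mean stood for its gene; of the 28 IGF probe sets 27 were kept. limma 3.58.1 in R 4.3.3 fitted 1 mean per genotype over all 10 arrays (7 residual degrees of freedom) and eBayes with a trend, two-sided, with Benjamini-Hochberg adjustment over 11357 genes; the fit was tested on simulated data. Named are the 10 genes, pathway genes that passed or otherwise had the 2 smallest p-values, the 3 genes most correlated with a gene that passed, and osteoblast markers. The genes and lists were chosen with earlier results of these data known. Correlations of deviations between same-numbered samples ran from -0.29 to 0.29, and the samples were not treated as paired. With so few samples this cannot exclude that the numbers mark a shared origin.

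The other settings were no filter, quantile scaling, equal medians, 16 added to the linear signal, the mean of or each kept probe set, only the 2 groups compared, a replicate block, no trend, similar wild-type pairs averaged, a term for Xist signal, and leaving out each array. The comparison of arrays of like Xist signal was added after seeing the data. Promoter windows were read from RefSeq with Python 3.11.15, and figures drawn with matplotlib 3.10.9.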

Additional observations from a re-analysis of the deposited data

Results flagged for a closer look

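In 4 of the 27 kept IGF probe sets, 1 of the 4 wild-type arrays stood apart from the other three, with a gap to the nearest array above 0.829 of the range. Chance alone puts about 5% of such groups past this limit. Wild type 2 was low in 1 Igfbp4 probe set (8.42, nearest 8.96) and high in 1 Igf2r probe set (11.49, nearest 11.43). Wild type 4 was low in 1 Igf1r probe set (9.58, nearest 9.86) and high in another (8.18, nearest 7.96). All 4 were probe sets other than the one that represented the gene.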

How the results depend on the processing

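The count of IGF genes that passed with active β-catenin against wild type was 1. It was 0 with a term for Xist signal, equal medians, averaged wild-type pairs, no trend or the replicate block, 2 after quantile scaling, and between 0 and 1 over the arrays left out in turn. Under the replicate block, which rests on sample numbers whose meaning is not given, the adjusted p of Igfbp7 was 0.143 in limma. The count was 0 in the other 2 comparisons under every setting. Of all genes, 89 passed with active β-catenin against wild type, 10 with a term for Xist signal, 195 in arrays of like Xist signal, 9 with averaged pairs, 141 with only the 2 groups and 15 with the block. Left-out arrays gave between 31 and 130 (31, 32, 45 and 35 without wild type 1 to 4, 40 without active β-catenin 1 or 3). With FoxO1 deleted 3 genes passed, 0 in arrays of like Xist signal, with averaged pairs or with the block (1070, 345 and 635 at an unadjusted p under 0.05 in limma), 5 with no trend or quantile scaling, 1 with only the 2 groups, and between 0 and 7 over left-out arrays (0, 7 and 0 without FoxO1 deleted 1 to 3, 1 without wild type 1). Between the altered genotypes 76 passed, 6 with a term for Xist signal, 13 in arrays of like Xist signal, 49 with averaged pairs, 25 with only the 2 groups, 22 with the block, and between 29 and 62 over left-out arrays (45 and 30 without active β-catenin 2 and 3, 29 without FoxO1 deleted 1). The Igfbp7 difference between active β-catenin and wild type, which had passed, was positive under every setting; for genes other than the 10 IGF genes, Htra1 and Irs1 only counts were compared. Low signal limits 1 Igfbp7 probe set, which stayed below the filter, and also the dimmer kept set, whose wild-type values lay around the filter level.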

Other observations

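The closest followers of Igfbp6 and Igfbp2 over the 10 arrays were looked up after their spread within the wild type was seen. Igfbp6 was followed most closely by Rspo3, a secreted enhancer of Wnt signalling (r = 0.990), Pi16 (r = 0.972) and Tnxb, a matrix glycoprotein of connective tissue (r = 0.971). Igfbp2 was followed by Slc5a6, a vitamin transporter (r = 0.968), and Ccn3, a secreted matricellular protein (r = 0.945). Between active β-catenin and wild type these 5 genes differed by 0.05, -0.03, 0.11, -0.08 and -0.19, and none passed the test in limma. The correlations are descriptions over arrays that share genotypes and the wild-type pairs.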
